A study of Mus musculus with 16 samples.

Results

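Translation initiation and elongation factors are the proteins that bring ribosome, initiator tRNA and mRNA together and then move the ribosome along the message. They were taken here as the protein-coding genes whose symbols begin with Eif1 to Eif6, Eef1 or Eef2, without the eIF2 alpha kinases (Eif2ak genes). Of 64 such genes among the 55487 genes counted, 63 had at least 10 counts in total over all libraries. The one left out, Eif4e1b, had none, and 11 matching symbols of pseudogenes and other non-coding genes were not members. The RNA came from slices cut from the hearts of 8-week-old males, either WT (C57Bl6/J) or Swhtr null. Swhtr null mice carry a transcriptional stop signal on both alleles (Swhtr3xpA/3xpA), which removes the full-length form of the heart lncRNA Swhtr, and the line had been backcrossed to C57BL/6J. Untreated slices were kept for 14 days at 21% O2, and treated slices for 7 days at 3% O2 and then 7 days at 21% O2. Each of the 4 groups held 4 libraries. The 4 mice of a genotype, from 2 litters, gave 8 libraries, so some libraries share a mouse. Which ones is not stated, and p-values therefore measure the spread between libraries. Swhtr itself is not a gene of the count table, so the genotype could not be checked in it.

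In initiation, eIF2 carries the initiator tRNA to the small ribosomal subunit, eIF3 holds the factors together there, and the eIF4 proteins bind the cap of the mRNA and unwind its leader. In elongation, eEF1A delivers each aminoacyl-tRNA to the ribosome, the eEF1B subunits recharge eEF1A with GTP, and eEF2 moves the ribosome to the next codon. Many of these mRNAs belong to the TOP class, whose 5′ end is a run of pyrimidines and whose translation is controlled by the kinase complex mTORC1. In heart muscle, growth of the cell depends on a rise in protein synthesis.

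The libraries held 17830351 to 29941903 counts, and treated libraries were deeper in both genotypes. The 63 members took 1.42 to 1.66% of the counts of a library. The 15 cardiomyocyte markers checked summed to only 7.975 to 122.1 CPM (counts scaled to a library total of 1000000) in a library, so the defining genes of heart muscle cells were close to 0 in these slices after culture. Fibroblast markers (9 genes) summed to 23520 to 33520 CPM and macrophage markers (12 genes) to 4252 to 13750 CPM. In bulk RNA, fewer cells of a type and less RNA per cell cannot be told apart.

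The starts of several members are shown because the TOP class is defined by the first bases of the mRNA, and because known TOP mRNAs are among the members described below. Each line gives 30 bases of the plus or minus strand of GRCm38.p6 within the 50 bases from the RefSeq gene start, 5′ to 3′, with the longest run of C or T in those 50 bases in capitals.
Eif3f, chr7:108934415-108934444, plus strand: CTCTCTTTCTCggcaagatggcttctccgg
Eef2, chr10:81176634-81176663, plus strand: gacgtcagcggTCTCTTCCgccgcagccgc
Eif4b, chr15:102073773-102073802, plus strand: cgccgcgccaCCCCCTCgcgctgctttacg
Eef1b2, chr1:63176850-63176879, plus strand: ttgcgtccgagcgCTTTCgttcaactccgg
Eef1a1, chr9:78481695-78481724, minus strand: TTCCCgagggtgggggagaacggtatataa
Eif3k, chr7:28981856-28981885, minus strand: gctgaaagcgCCTTTCCCTTTgccttcctt
Eif4g3, chr4:137993455-137993484, plus strand: cgTCCTgccggactgctggaggcggccgca

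The first 5 of these belong to a hand-made list of known TOP mRNAs, Eif3k does not, and Eif4g3 is shown as a member with the opposite direction. The run of Eif3f was 11 bases long and began at the first base. That of Eef2 was 8 bases long and began at base 15, and that of Eif3k was 11 bases long and began at base 14. The starts shown were chosen with the members' values known. Long runs also lay in Eif3a (13 bases), Eif5a and Eif2s3y (12 each), and Eef1a2 and Eif2s3x (11 each). None of these was among the 10 members at an adjusted p under 0.05 in the null response given below. Whether a pyrimidine run goes with the response was not tested. A run of 8 or more bases that are C or T, read on the gene's strand only, was found in this window in 14 of the 48 members with an entry (29.2%) and in 5388 of all 27025 genes of the table (19.9%). Of the 5 TOP-list members with an entry, 2 held such a run. RefSeq starts can lie some bases from the start used in these slices. The printed Eef1a1 window holds a TATA-like stretch, which normally lies before the start, and a window without a long run says nothing about the end of the mRNA.

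Of the 63 members, 62 had a mean above 1 CPM, 58 above 10 CPM, 26 above 100 CPM and 2 above 1000 CPM. Eef1a1 and Eef2 were the 2 highest. Eef1a1 took 31.1% and Eef2 14.1% of the members' summed CPM. Divided by exon length, which allows levels of different genes to be compared, Eef1a1 stood at 1919 CPM per kb and Eef2 at 649.9 CPM per kb. Eef1g, which holds the eEF1B complex together, followed within eEF1 at 180.3 CPM per kb and Eef1b2, its exchange factor, at 113.8 CPM per kb. The exon length is the union of all annotated exons, which lowers the value of genes with long alternative exons, and Eef1a1 has near-identical processed pseudogenes with which its reads may be shared.

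The complexes were not held at one level per subunit. Within eIF3, the mean level ran from 7.465 CPM per kb for Eif3d to 99.13 CPM per kb for Eif3h. Part of this range comes from their exon lengths, since the plain means were 37.09 and 159.8 CPM. Within the eIF4 group, the helicase Eif4a1 stood at 149.2 CPM per kb, Eif4a2 at 58.34 and Eif4a3, a helicase of the exon junction complex, at 28.06. Per kb of exon, the cap-binding protein Eif4e was lower, at 12.9 CPM per kb, than its inhibitor Eif4ebp1 at 38.61 CPM per kb. Most of this gap comes from the exon lengths of 6008 and 2196 bp, since the plain means were 77.51 and 84.79 CPM. Eif4ebp3, the third 4E-binding protein, was near the floor of the data, with 0.1026 to 1.074 CPM in the 16 libraries.

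Summed over complexes, eEF1 and eEF2 varied most between the groups. The 6 eEF1 members summed to 5950 ± 150 CPM (SD, n = 4) in untreated WT slices and 5497 ± 145 CPM in treated WT slices. In Swhtr null slices they summed to 6321 ± 416 CPM untreated and 5201 ± 60.0 CPM treated. The lowest untreated null library, at 5752 CPM, was above the highest treated one, at 5288 CPM. The 11 eIF4 factors stayed within 3342 to 3378 CPM as group means, and the 14 eIF3 subunits went from 1856 ± 68.1 to 1721 ± 47.7 CPM in Swhtr null slices, where the lowest untreated and the highest treated library were both at 1780 CPM. All 63 members summed to 16290 ± 683 CPM in untreated and 14460 ± 199 CPM in treated null slices. Eef1a1 and Eef2 together made up 77.9% of that difference of 1830.3 CPM.

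**Figure D1:**
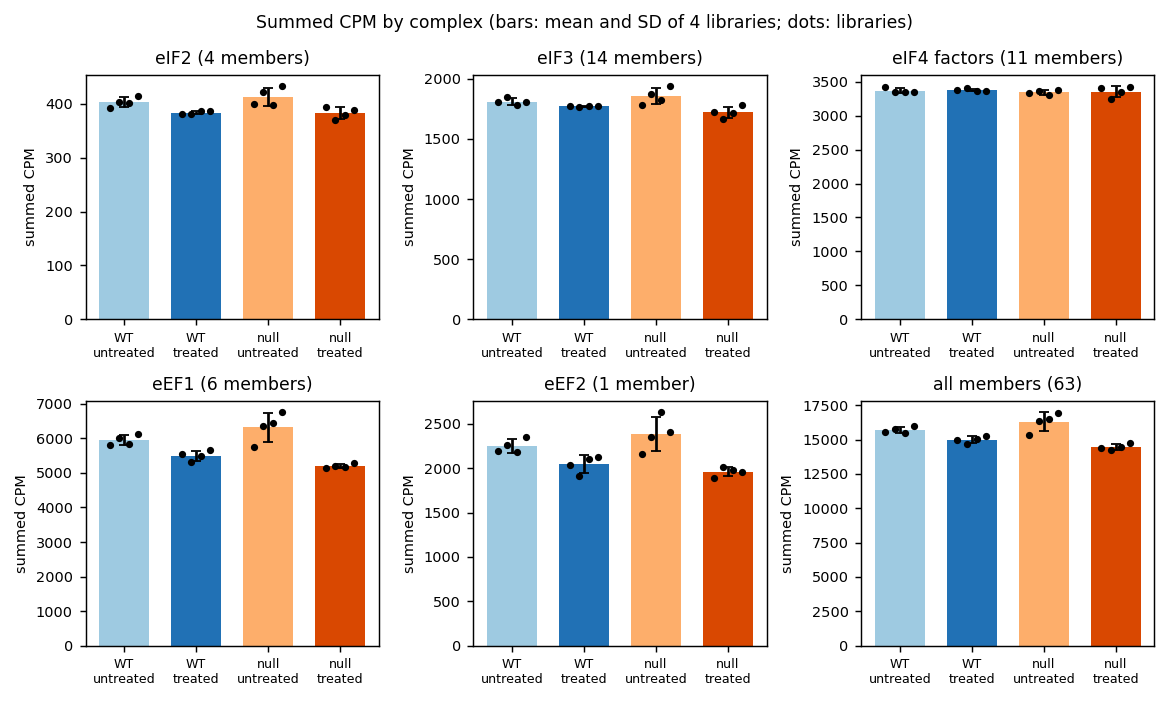
Summed CPM (y axis, from 0) of the members of eIF2, eIF3, the eIF4 group, eEF1, eEF2 and all 63 members in the 4 groups (x axis), with bars for the mean, error bars for the SD of 4 libraries and dots for libraries. The eEF1 bars fall from 6321 to 5201 CPM between untreated and treated null slices, whereas the eIF4 bars lie between 3342 and 3378 CPM in all groups.

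The response to 3% O2 and return to 21% O2 was then tested gene by gene within each genotype. A call needed both an adjusted p under 0.05 (edgeR's quasi-likelihood test, adjusted over all 24971 genes tested) and an absolute log2 fold change over 0.58. No member was called in any of the 5 comparisons. Of all genes tested, 0.621% were called in treated against untreated null slices, 0% in treated against untreated WT slices, 0.1% between the genotypes untreated, 0.0921% between them treated and 0% for the difference of the responses. Between the genotypes Eif4ebp3, near the floor, passed the fold threshold alone, with log2 fold changes of -0.74 untreated and -0.80 treated. It did not reach an adjusted p under 0.05. Because no member was called, the count at an adjusted p under 0.05 alone is given as well. By that count 10 members were lower and none higher in treated null slices. Among all genes tested the share was 1.27% lower and 0.909% higher, and among the 9747 genes with a mean of at least 10 CPM 2.87% were lower. The 10 members are Eif4ebp1, Eif1b, Eef1a1, Eif3e, Eif4b, Eif3h, Eif3k, Eef2, Eef1b2 and Eif3f. Over all members, 49 of 63 had values below 0 and 14 above (48.3% of all genes were below 0), with a median log2 fold change of -0.07, against 0.01 for all genes tested. At an unadjusted p under 0.05, 18 members were lower and 2 higher, where 7.84% of all genes were lower and 8.69% higher. Among genes with a mean of at least 10 CPM, 12.8% were lower and 14% higher. The 4 treated and 4 untreated null libraries did not overlap for 13 lower and 2 higher members, and for 3.78% and 3.54% of all genes. For genes with a mean of at least 10 CPM these shares were 5.91% and 5.58%.

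The number of members at an adjusted p under 0.05 changed with the libraries in the fit. With only the 8 null libraries in the fit, no member reached an adjusted p under 0.05, and 15 were lower at an unadjusted p under 0.05. In that fit 6 of 22330 genes reached an adjusted p under 0.05, and the share at an unadjusted p was not counted. In the fit of all libraries 10 members were lower at an adjusted p under 0.05. Without untreated null replicate 1, 2, 3 or 4 this count was 11, 12, 3 or 1. Without treated null replicate 1, 2, 3 or 4 it was 4, 10, 11 or 6. All genes at an adjusted p under 0.05, in either direction, went from 544 to 471, 1490, 209 or 154 without an untreated null replicate. Without a treated null replicate they were 277, 333, 747 or 417. Eif4g3 passed as higher without untreated null replicate 2 or treated null replicate 4. The fold changes moved less, for example from -0.34 to -0.27 for Eef1a1 and from -0.50 to -0.38 for Eif4ebp1 over all alternatives.

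**Figure D2:**
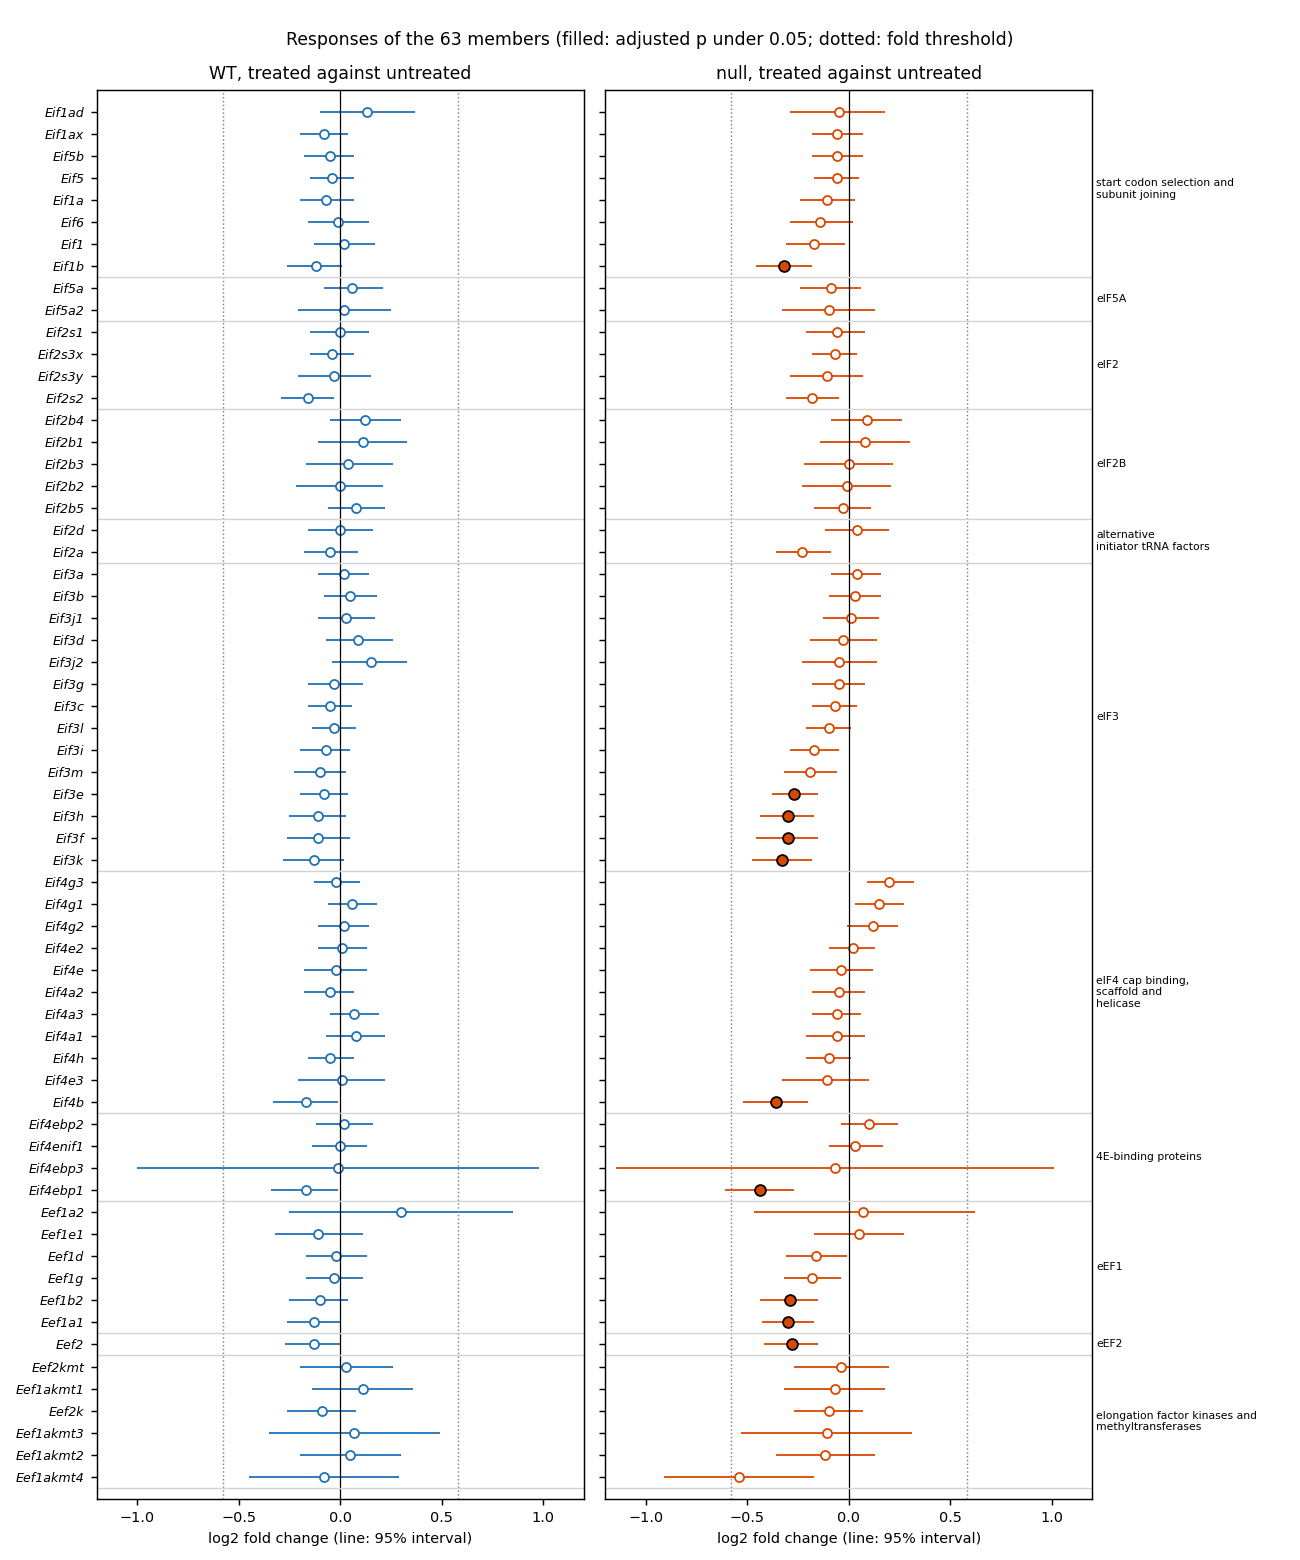
Log2 fold change (x axis) of treated against untreated slices for each of the 63 members (rows, by role) in WT (left) and Swhtr null (right), with lines for 95% intervals (cut at the axis limit), filled dots for an adjusted p under 0.05 and dotted lines at 0.58. The 10 filled dots are all in the null panel and left of 0, and the 3 eIF4G genes lie right of 0 there.

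Of the 6 eEF1 members, 2 (Eef1a1 and Eef1b2) were lower at an adjusted p under 0.05 in the null response, as was Eef2, and Eef1a2 and Eef1e1 had values above 0. Eef1a1 (ENSMUSG00000037742, GRCm38 chr9:78478449-78489151, minus strand), which delivers aminoacyl-tRNA, was at 4830, 5177, 5458 and 5695 CPM in untreated null libraries and at 4269, 4292, 4286 and 4320 CPM in treated ones. In WT it was at 4915, 5041, 4876 and 5147 CPM untreated and at 4604, 4354, 4535 and 4727 CPM treated. In both genotypes every treated library lay below every untreated library, and the treated null libraries were also below all treated WT libraries. The log2 fold change was -0.30 ± 0.06 (SE, n = 4 per group, adjusted p = 0.013) in Swhtr null and -0.13 ± 0.06 (adjusted p = 1) in WT slices. Its counterpart Eef1a2, the form known from muscle and nerve, was between 61.83 and 139.8 CPM in the 16 libraries and varied more than any other member above 10 CPM (coefficient of variation 24.8%). Eef1a2 differed by 0.07 ± 0.25 in null and 0.30 ± 0.25 in WT slices, and its groups overlapped.

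Eef1b2, the subunit that exchanges GDP for GTP on eEF1A, was at 289.1, 351.8, 297.8 and 345.5 CPM in untreated and 251.9, 273.9, 260.2 and 262.2 CPM in treated null libraries. The groups did not overlap, and the log2 fold change was -0.29 ± 0.07 (adjusted p = 0.03). The other eEF1B subunits, Eef1g and Eef1d, had log2 fold changes of -0.18 ± 0.07 (adjusted p = 0.19) and -0.16 ± 0.07 (adjusted p = 0.26). Eef1e1, which also belongs to the multisynthetase complex, had 0.05 ± 0.10.

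Eef2, the translocase, was at 2165, 2355, 2627 and 2405 CPM in untreated and 1893, 2013, 1978 and 1962 CPM in treated null libraries, and at 2192, 2262, 2177 and 2349 CPM untreated and 2036, 1914, 2106 and 2131 CPM treated in WT. Neither genotype's groups overlapped. The log2 fold change was -0.28 ± 0.07 in null (adjusted p = 0.023) and -0.13 ± 0.07 in WT slices (adjusted p = 1). Eef2k, the kinase that inhibits eEF2, had -0.10 ± 0.08 in null slices (adjusted p = 0.57). Of the enzymes that methylate eEF1A, Eef1akmt4 had the largest change of any member in size, -0.54 ± 0.18 (adjusted p = 0.12), at only 2.468 to 5.59 CPM in the null libraries.

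Within eIF3, 4 of 14 subunits were lower at an adjusted p under 0.05 in the null response, and the median of the 14 was -0.09. Eif3e was at 128.9, 137.8, 141.5 and 143.9 CPM in untreated and at 119.6, 117.3, 114.6 and 107.3 CPM in treated null libraries. Eif3h was at 155.5, 181.7, 183.4 and 184.4 CPM untreated and at 130.9, 150.9, 143.7 and 145.3 CPM treated. For both genes all untreated libraries were above all treated ones, with log2 fold changes of -0.27 ± 0.06 (Eif3e, adjusted p = 0.015) and -0.30 ± 0.07 (Eif3h, adjusted p = 0.018).

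Eif3k was at 73.15, 88.47, 84.3 and 92.16 CPM in untreated and 59.85, 68.84, 68.35 and 72.61 CPM in treated null libraries. Eif3f, whose start is a run of 11 pyrimidines in the RefSeq annotation, was at 163.5, 165.9, 197.4 and 200.5 CPM untreated and 138.2, 151.4, 147.3 and 151.8 CPM treated. The groups of both genes were again apart, by less than 1 CPM for Eif3k. The log2 fold changes were -0.33 ± 0.07 for Eif3k (adjusted p = 0.019) and -0.30 ± 0.08 for Eif3f (adjusted p = 0.037).

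All 4 of these subunits carry a PCI or MPN domain, as do Eif3a, Eif3c, Eif3l and Eif3m, and these 8 form the core octamer of eIF3. This split was chosen after the values were seen. The median log2 fold change was -0.23 for the octamer and -0.04 for the other 6 subunits in null slices, and -0.09 and 0.04 in WT slices. The octamer did not move as one, since Eif3a, its largest subunit, had 0.04 ± 0.06 and Eif3c -0.07 ± 0.05. Of the other subunits, Eif3i had -0.17 ± 0.06 (adjusted p = 0.14), and Eif3b, Eif3d and Eif3g had values from -0.05 to 0.03. Eif3j1 and Eif3j2 are near-identical copies whose reads the counting may split. They had 0.01 ± 0.07 and -0.05 ± 0.09.

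The eIF4 group contained members of both directions. Eif4b, the cofactor of the helicase eIF4A, was at 363, 342.6, 445.8 and 389.9 CPM in untreated and 288.5, 289.6, 327 and 293.5 CPM in treated null libraries. The groups did not overlap, and the log2 fold change was -0.36 ± 0.08 (adjusted p = 0.016). In WT slices Eif4b had -0.17 ± 0.08 (adjusted p = 1), and the groups overlapped. The helicases Eif4a1 and Eif4a2, with log2 fold changes of -0.06 ± 0.07 and -0.05 ± 0.06 in null slices, and the cap-binding Eif4e, with -0.04 ± 0.07, were closer to 0.

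The eIF4G scaffolds, which bridge the cap complex and eIF3, had values above 0 in null slices, although none reached an adjusted p under 0.05. Eif4g3 was at 184.6, 191.7, 181.4 and 174.8 CPM in untreated and 207.4, 224.5, 215.2 and 196.8 CPM in treated null libraries. Every treated null library was above every untreated one, with a log2 fold change of 0.20 ± 0.06 (adjusted p = 0.06). Eif4g1 likewise did not overlap, with 0.15 ± 0.06 (adjusted p = 0.18), and Eif4g2, a scaffold that lacks the eIF4E site, had 0.12 ± 0.06 (adjusted p = 0.32). In WT slices the 3 values were -0.02, 0.06 and 0.02 for Eif4g3, Eif4g1 and Eif4g2.

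Eif4ebp1 had the smallest p of all members in null slices. It encodes 4E-BP1, which holds eIF4E away from eIF4G until mTORC1 phosphorylates it. Eif4ebp1 was at 87.23, 96.68, 110.4 and 99.44 CPM in untreated and 66.9, 72.94, 80.73 and 69.31 CPM in treated null libraries. In WT libraries it was at 80.8, 89.04, 91.51 and 95.5 CPM untreated and 72.43, 73.35, 84.8 and 85.61 CPM treated. The null groups were apart, and the WT groups overlapped. The log2 fold change was -0.44 ± 0.08 in null (adjusted p = 0.0063) and -0.17 ± 0.08 in WT slices (adjusted p = 1). Eif4ebp2, the second 4E-binding protein, had 0.10 ± 0.07 in null slices. The ratio of Eif4ebp1 to Eif4ebp2, both per kb, was 2.44 ± 0.35 in untreated and 1.67 ± 0.16 in treated null slices (SD, n = 4), and 2.05 ± 0.20 and 1.79 ± 0.13 in WT.

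**Figure D3:**
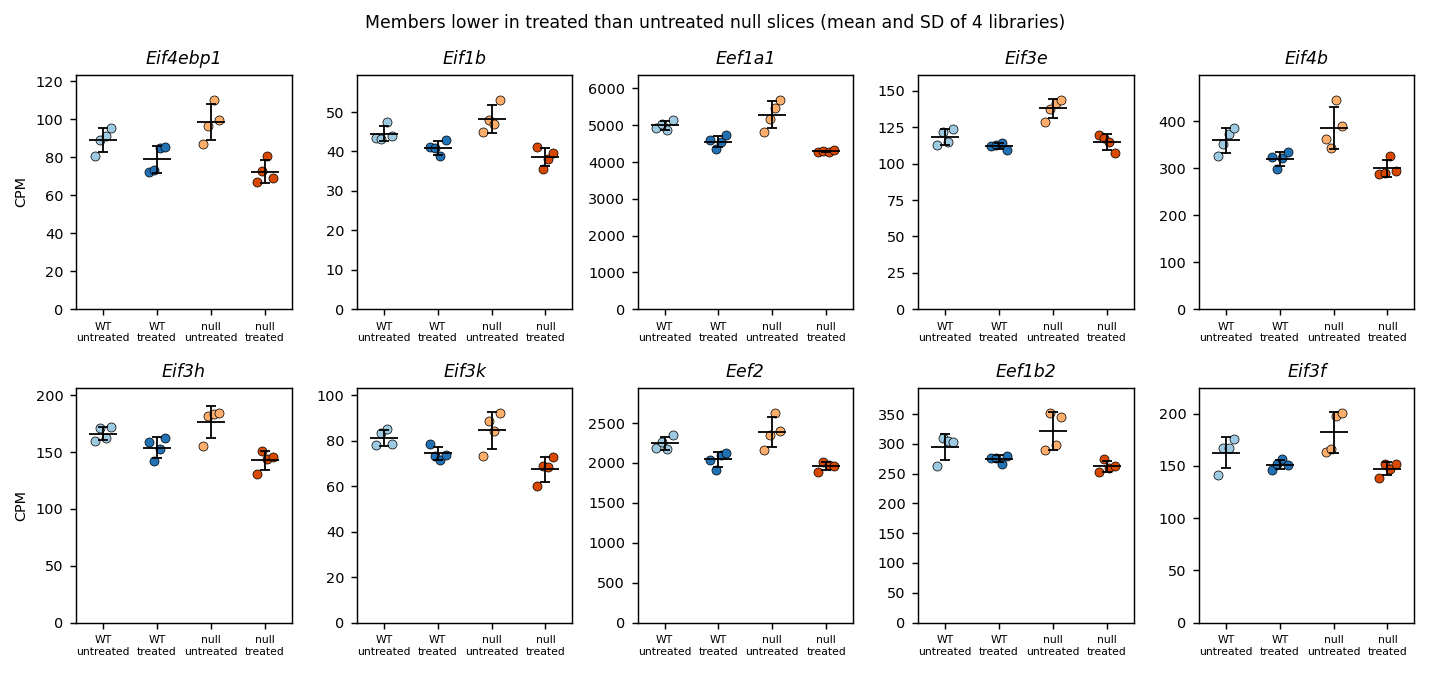
CPM (y axis, from 0) of the 10 members with an adjusted p under 0.05 in treated against untreated null slices, with a dot for each of the 4 libraries of a group (x axis) and the mean and SD. In each panel the treated null dots lie below the untreated null dots, and the WT means differ in the same direction by less, as for Eef1a1 with 4995 and 4555 CPM in WT and 5290 and 4292 CPM in Swhtr null.

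Among the factors of start codon selection, Eif1b was the only one with an adjusted p under 0.05. It is a close relative of Eif1, which keeps the scanning ribosome from stopping at wrong codons. Eif1b was at 44.86, 48.03, 47.09 and 53.13 CPM in untreated and at 41.07, 35.67, 38.04 and 39.59 CPM in treated null libraries, without overlap. The log2 fold change was -0.32 ± 0.07 (adjusted p = 0.012). Eif1 itself had -0.17 ± 0.07 (adjusted p = 0.24). The remaining 6 members of this group did not reach an adjusted p under 0.05 and had values between -0.14 (Eif6, which keeps free large subunits apart from small ones) and -0.05 (Eif1ad).

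No gene of the eIF2 complex reached an adjusted p under 0.05 in either genotype, and Eif2s2 was the only one of 4 at an unadjusted p under 0.05. All 4 subunit genes had values below 0 in null slices, with a median of -0.09, and in WT slices, with a median of -0.03. Eif2s2, the beta subunit, was at 132.7, 151.3, 132.4 and 154.7 CPM in untreated and 129.1, 123.3, 123.3 and 128.4 CPM in treated null libraries, and at 127.9, 140.6, 138.7 and 145.2 CPM and 123.4, 121.4, 122.9 and 127.6 CPM in WT. In both genotypes the untreated libraries were above the treated ones. The log2 fold changes were -0.18 ± 0.06 (adjusted p = 0.14) and -0.16 ± 0.06 (adjusted p = 1).

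Eif2s1, the alpha subunit whose phosphorylation shuts initiation down, had -0.06 ± 0.07 in null slices, and the gamma subunit genes Eif2s3x and Eif2s3y had -0.07 ± 0.05 and -0.11 ± 0.09. Eif2s3y, on the Y chromosome, was at 43.45 to 57.02 CPM in the 16 libraries, all from males. The 5 genes of eIF2B, the exchange factor of eIF2, had a median of -0.00 in null slices and values between -0.03 (Eif2b5) and 0.09 (Eif2b4). Eif2a, which can bring initiator tRNA without eIF2, had -0.23 ± 0.07 (adjusted p = 0.079), and Eif2d had 0.04 ± 0.08. Eif5a, the factor that carries hypusine and helps the ribosome past difficult peptide bonds, had -0.09 ± 0.07.

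In WT slices no member reached an adjusted p under 0.05 with edgeR, DESeq2 or limma, and among all genes 0.004% did with edgeR. At an unadjusted p under 0.05, 4 members were lower and none higher, where 2.2% of all genes were lower and 2.62% higher. These were Eif2s2, Eif4b, Eif4ebp1 and Eef1a1. The count of 4 fell to 0 without untreated WT replicate 4, to 1 without untreated WT replicate 2 or 3 or treated WT replicate 1 or 2, and to 2 without treated WT replicate 3. With only the 8 WT libraries in the fit it was 8. The share of all genes in these refits was not counted. The 2 treatment groups did not overlap for 6 lower members and no higher member, against 1.75% of all genes lower and 1.92% higher. Of the members, 38 of 63 had values below 0 (48% of all genes), and the median of the members was -0.02. The WT interval of Eef1a1 ran from -0.26 to -0.00 and that of Eef2 from -0.27 to 0.00 on the log2 scale.

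The 9 members on a hand-made list of known TOP mRNAs (Eef1a1, Eef1b2, Eef1d, Eef1g, Eef2, Eif3e, Eif3f, Eif3h and Eif4b) had log2 fold changes below 0 in both genotypes. This list was drawn up with earlier results of these data known and may leave out other TOP mRNAs. The values below therefore depend on which genes were listed, and members off the list were not shown to lie outside the class. Among those members Eef1a2, the counterpart of Eef1a1, had 0.07 in null and 0.30 in WT slices. Eif3a, which was not below 0 in null slices, is not on the list either. Nor is Eif2s3x, whose RefSeq start is a run of 11 pyrimidines. In null slices 7 of the 9 were lower at an adjusted p under 0.05 (1.27% of all genes) and 7 without overlap (3.78% of all genes), and the median of the 9 was -0.29. Among genes with a mean of at least 10 CPM these shares were 2.87% and 5.91%. In WT slices none of the 9 reached an adjusted p under 0.05, 2 were lower at an unadjusted p under 0.05 (2.2% of all genes), and the median was -0.11. The 54 members outside this list had medians of -0.06 and -0.00, and 3 of them (Eif1b, Eif3k and Eif4ebp1) had an adjusted p under 0.05 in null slices. Among all genes with a mean of at least 10 CPM the median was -0.00 in null and 0.01 in WT slices.

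Whether the response differed between the genotypes was tested as the difference of both responses. No member reached an adjusted p under 0.05 with edgeR, DESeq2 or limma, and no gene of the 24971 did with edgeR (0% of genes). With a replicate block within genotype, added after seeing the data, 199 of the 24971 genes did, and still no member. At an unadjusted p under 0.05, 1 member was higher and 3 were lower, where 3.26% and 3.63% of all genes were. The 3 lower members became 12 without untreated null replicate 1, 6 without untreated null replicate 2 and 5 without treated null replicate 3. They became 1 without untreated null replicate 4, untreated WT replicate 1 or treated WT replicate 3 or 4, and 2 without untreated WT replicate 2 or 3, untreated null replicate 3, treated WT replicate 1 or treated null replicate 1 or 4. With a replicate block, within genotype or not, they were 9. Shares of all genes were not counted in these refits, so a shift of all p-values cannot be told apart from one of the members. The higher one was Eif4g3, whose response was higher by 0.22 ± 0.08 in null slices (95% interval 0.06 to 0.39, adjusted p = 0.71). The lower ones were Eif4ebp1 with -0.27 ± 0.12, Eif3e with -0.19 ± 0.08 and Eif1b with -0.20 ± 0.09, each with an adjusted p of 0.71. For Eef1a1 the difference was -0.17 ± 0.09 (95% interval -0.35 to 0.02), and for Eef2 -0.15 ± 0.09 (95% interval -0.34 to 0.04). Over all members 52 of 63 differences were below 0 (49.8% of all genes), with a median of -0.08 against 0.00 for all genes tested. A response of the members in null slices that differs from that in WT slices was therefore not shown.

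Between the genotypes, no member reached an adjusted p under 0.05 with edgeR in untreated slices, where 0.124% of all genes did, or in treated slices, where 0.112% did. In untreated slices 2 members were higher in Swhtr null at an unadjusted p under 0.05 (2.72% of all genes) and none lower (2.64%). These counts became 8 higher and 1 lower without untreated null replicate 1 and 4 higher without untreated null replicate 3. Only 1 was higher without untreated null replicate 4, treated null replicate 3, untreated WT replicate 1 or 2, any of the treated WT libraries, or with only the libraries compared. How many of all genes passed in each of these refits was not counted. Eif3e was at 112.7, 121.7, 114.8 and 124 CPM in untreated WT libraries, all below the lowest untreated null library at 128.9 CPM. Its log2 fold change was 0.22 ± 0.06 (adjusted p = 0.42), and DESeq2 gave it an adjusted p under 0.05. Eif3f was the other, with 0.16 ± 0.08 (adjusted p = 0.9). Next by p was Eef1akmt2, a methyltransferase of eEF1A, with 0.23 ± 0.12. This comparison shares the untreated null libraries with the null response, so a high value in them raises the first and lowers the second.

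In treated slices Eif4g3 was higher in Swhtr null at an unadjusted p under 0.05, with 0.16 ± 0.06 (adjusted p = 0.77), and Eif4a3 lower with -0.13 ± 0.06 (adjusted p = 0.77), where 2.88% of all genes were higher and 3.36% lower. The count of lower members was 5 without treated null replicate 4 or with a replicate block, 4 without treated null replicate 3, 3 without treated null replicate 2 and 2 without untreated null replicate 1. It was 0 without treated null replicate 1 or treated WT replicate 1 or 2. Again the share of all genes in these refits was not counted. Eif4g3 was at 192.4, 177.4, 192.1 and 191.1 CPM in treated WT libraries, all below the lowest treated null library at 196.8 CPM. Next by p was Eif3k, with -0.14 ± 0.07 (adjusted p = 0.77).

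The other genes of translation control were described from lists of the same kind. Of 15 genes of mTORC1, S6 kinase and MNK signalling, 10 were higher and 5 lower in the null response, with 1 in each direction at an adjusted p under 0.05. Ddit4, a stress-induced inhibitor of mTORC1, was at 218.7 to 243 CPM in untreated and 114.7 to 146.8 CPM in treated null libraries, with a log2 fold change of -0.81 ± 0.10 (adjusted p = 0.0013), and passed the fold threshold. In WT slices Ddit4 had -0.64 ± 0.10 (adjusted p = 0.054), and the difference of the responses was -0.17 ± 0.14. Tsc2, another inhibitor of mTORC1, had 0.27 ± 0.07 in null slices (adjusted p = 0.044) and 0.00 ± 0.07 in WT slices.

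Of 6 genes for eIF2 alpha kinases and the phosphatase subunits that reverse them, 1 passed an adjusted p under 0.05 in the null response. It was Ppp1r15a (GADD34), which was at 39.87 to 49.33 CPM in untreated and 28.99 to 37.77 CPM in treated null libraries, without overlap, with -0.41 ± 0.09 (adjusted p = 0.021), and with -0.24 ± 0.09 in WT slices (adjusted p = 1). None of the 20 cytosolic aminoacyl-tRNA synthetases reached an adjusted p under 0.05 (median -0.03), with the smallest p for Sars at -0.21 ± 0.06 (adjusted p = 0.059). The same held for the 7 genes of poly(A)-binding proteins and their regulators, among them Pabpc1 with -0.18 ± 0.06 (adjusted p = 0.089). The 6 termination and recycling factors (median 0.04), 2 scaffolds of the multisynthetase complex (median -0.18), 9 mitochondrial translation factors (median -0.00) and 2 enzymes of hypusine synthesis (median -0.27) had no gene at an adjusted p under 0.05 either.

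Markers of cell types differed between treated and untreated slices too, some of them in both genotypes. The 12 macrophage markers summed to 8528 to 13750 CPM in untreated and 4252 to 10720 CPM in treated null libraries, and all 12 had values below 0 (median -0.57). None reached an adjusted p under 0.05, and 6 had an unadjusted p under 0.05. At that threshold 7.84% of all genes were lower, and 12.8% of those with a mean of at least 10 CPM. In WT slices the macrophage markers summed to 10200 to 12850 CPM untreated and 9814 to 11370 CPM treated, and 10 of the 12 had values below 0 (median -0.11). The 6 smooth muscle and pericyte markers (median 0.49) and the 6 endothelial markers (median 0.33) all had values above 0 in null slices, as did 8 of 9 fibroblast markers (median 0.21) and 14 of 15 cardiomyocyte markers (median 2.77, at sums of 8.77 to 14.23 CPM untreated and 12.57 to 122.1 CPM treated). Cardiomyocyte markers were also above 0 in WT slices, 14 of 15 of them (median 1.36). The WT medians were 0.01 for smooth muscle and pericyte, 0.01 for endothelial and -0.01 for fibroblast markers. The part of the cell type markers in the members' values was not tested. Replicate 2 had the lowest macrophage sum in both null groups, and without those 2 libraries the same 10 members were lower at an adjusted p under 0.05, when 1339 of 24360 genes in all reached it, against 544 of 24971 with all libraries. The macrophage sums of the remaining libraries were still apart, at 11300 to 13750 CPM untreated and 8051 to 10720 CPM treated.

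**Figure D4:**
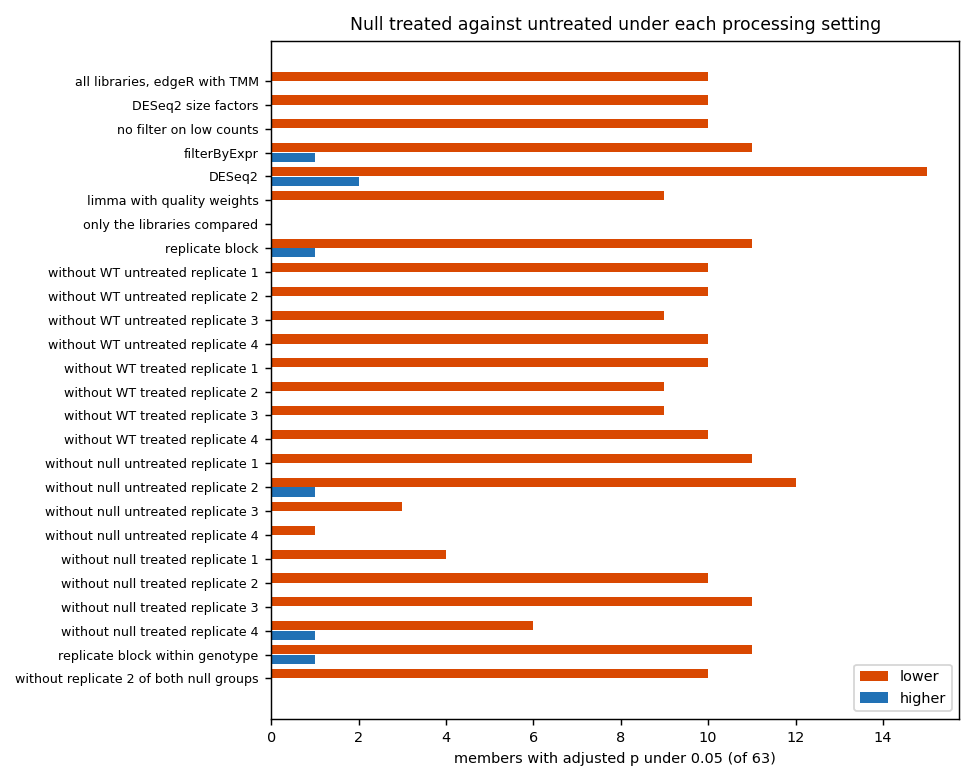
Number of members (x axis, of 63) with an adjusted p under 0.05 in treated against untreated null slices under each processing setting (rows), lower in orange and higher in blue. The count is 10 with all libraries, 0 with only the 8 null libraries in the fit and 17 with DESeq2 (15 lower and 2 higher).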

How the data were processed

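RNA from the 16 slice cultures was sequenced in paired-end reads of 150 bp. The deposited values are counts per gene, which the authors made with STAR (also named in the submitters' processing notes) on mm10 and GenomicAlignments on Ensembl release 102, with no normalization. The strand setting is not stated. The methods name a ribosomal-depletion kit and the labels an mRNA kit. All 16 columns were used, grouped by the sample titles. Roles were assigned by hand, and symbols and exon lengths came from GENCODE M21 (GRCm38), which held 55227 of the 55487 gene identifiers.

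In R 4.3.3, the 24971 genes whose counts summed to 10 or more were normalized by TMM and fitted with edgeR 4.0.16 (robust quasi-likelihood, 4 group means, 12 residual degrees of freedom). P-values were adjusted by Benjamini and Hochberg over all genes tested. CPM are counts per 1000000 after TMM, intervals are at 95% from the t distribution of the fit, and errors of levels are SDs. The members and gene lists were chosen with earlier results of these data known. The text names, per role group, up to 3 members with the smallest p in each response and in their difference, the highest per kb, paralogs, and in genotype comparisons the 3 smallest p; other members are named after their values were seen.

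Deviations from the group means of same-numbered libraries had correlations of 0.15 to 0.59 in null and -0.11 to 0.32 in WT slices. The same number was the best match for 3 of 4 null and 2 of 4 WT libraries. It was also the best match for 3 of 4 between untreated null and WT libraries (0.01 to 0.38), which come from different mice. These values therefore cannot tell which libraries share a mouse, and the main fit has no block. No 2 libraries agreed within sampling noise (lowest chi-square per degree of freedom 7.62). Alternatives were DESeq2 1.42.0, limma 3.58.1 with quality weights, DESeq2's size factors, other filters, only the libraries compared, a replicate block, each library left out, no fold threshold and plain library sizes. Added after seeing the data were repeats of the count without the fold threshold under the other alternatives, a block within genotype and leaving out 2 null libraries. The fit was tested on simulated data.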

Additional observations from a re-analysis of the deposited data

Results flagged for a closer look

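In 11 of 192 groups of 4 libraries, over 48 members, 1 library stood apart from the other 3 by Dixon's criterion, which chance alone gives in about 1 of 20 groups. None of these values was tested further. In untreated WT slices, replicate 1 was apart for Eif1 (335 CPM, others 286 to 291), Eef1b2 (262 CPM, others 302 to 310) and Eef1g (440 CPM, others 474 to 478). Replicate 3 was apart for Eif1b (47.5 CPM, others 43.3 to 44.0) and replicate 4 for Eif4e2 (79.2 CPM, others 78.2 to 78.3). In treated WT slices, replicate 2 was apart for Eif4g3 (177 CPM, others 191 to 192) and Eef1g (446 CPM, others 461 to 463), and replicate 3 for Eif4e3 (13.1 CPM, others 15.5 to 15.9). In Swhtr null slices the values apart were untreated replicate 1 for Eif3h (156 CPM, others 182 to 184), untreated replicate 4 for Eef1akmt1 (10.2 CPM, others 8.21 to 8.52) and treated replicate 3 for Eif4b (327 CPM, others 289 to 294).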

How the results depend on the processing

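The count of members called with the fold threshold was 0 in all 5 comparisons, and stayed 0 under each alternative except in the null response. There it was 10 without the fold threshold and 0 to 1 when a library was left out (Eef1akmt4, without untreated replicate 2 or treated replicate 3). The 10 members at an adjusted p under 0.05 in the null response became 17 with DESeq2 and 0 with only the libraries compared, and 1 to 13 when 1 library was left out. In that response 12 passed with a replicate block (11 lower, 1 higher), and also with a block within genotype, while all genes at an adjusted p under 0.05 went from 544 to 1549 and 2347. The like counts were 1446 with DESeq2 and 6 with only the libraries compared. All genes past both thresholds were 155, and 450 and 616 with the blocks, 464 with DESeq2 and 6 with only the libraries compared. Neither block gave a member at an adjusted p under 0.05 in the other comparisons fitted. At an unadjusted p under 0.05 the replicate block gave 9 lower members in place of 3 in the difference of the responses, 5 in place of 1 between treated null and WT slices, 3 higher in place of 2 between untreated ones, and 5 lower in place of 4 in the WT response (6 within genotype). Under the blocks the share of all genes at an unadjusted p was not counted. For all genes the block within genotype gave 199 in place of 0 at an adjusted p under 0.05 in the difference and 42 in place of 1 in the WT response. DESeq2 gave 1 member (Eif3e) in untreated null against WT slices, where edgeR gave 0. Over these alternatives Eif4ebp1 ran from -0.50 to -0.38 and passed in 24 of 25, Eef1a1 from -0.34 to -0.27 and passed in 22, and Eif3f from -0.36 to -0.26 and passed in 16. Plain library sizes moved the treated null mean of Eef1a1 from 4292 to 4342 CPM. No named member's direction was reversed where it had an unadjusted p under 0.05 in either fit. The 4 libraries per group limit the precision. The cause of these shifts was not tested.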
